A study of Saccharomyces cerevisiae with 4 samples.

Results

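The ergosterol synthesis genes are the nuclear genes that make the main membrane sterol of budding yeast (Saccharomyces cerevisiae, strain S288C). They were chosen by name from the authors' deposited table, as every common name of ERG followed by a digit, plus HMG1, HMG2, MVD1, IDI1, NCP1, ARE1, ARE2 and UPC2. This gave 27 of the 6692 genes listed. The rule reads names alone. All 27 were found in the reference gene table under the same symbol, as protein-coding genes, and all 27 had enough reads to be measured in every comparison.

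The study asked which messages are translated close to the mitochondrial outer membrane. The biotin ligase BirA was fused with the fluorescent protein mVenus to Om45, an outer membrane protein, and ribosomes near it were biotinylated on an AVI tag, a short acceptor peptide, then purified on streptavidin. Footprints, the message fragments that ribosomes protect from RNase I, were sequenced from the purified ribosomes (pulldown) and from all ribosomes (input). This was done with and without cycloheximide, which stalls elongating ribosomes on their messages, and each of the 4 groups held 1 library.

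All 4 libraries came from the same labelled genotype. OM45 carried mVenus and BirA at om45 with a HIS5 marker, both RPL16a and RPL16b carried HA, TEV and AVI tags, BirA under the PGK1 promoter stood at leu2 with LEU2, and the ura3Δ0, met15Δ0 and his3Δ1 alleles were present. The ligase at leu2, as labelled, is not tied to Om45, so enrichment is that of the whole strain. Cells grew in SD medium with 0.125 ng/ml D-biotin, and biotin at 10 nM was given for 2 min before harvest in every group. The cycloheximide groups had 100 µg/ml of the drug for 2 min before biotin. With 1 library per group, no difference has a replicate check, no test was made, and the effect of the drug cannot be told apart from that of the culture.

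Ergosterol is built from acetyl-CoA through mevalonate, farnesyl diphosphate and squalene. The mevalonate steps are mostly soluble enzymes, apart from HMG-CoA reductase, which sits in the endoplasmic reticulum (ER), while the sterol steps are carried out by proteins of the ER membrane and of lipid droplets. Several late steps need oxygen and heme, and the transcription factor Upc2 activates the genes when sterol is low. Mitochondria take up sterol made elsewhere, and contacts between the ER and the outer membrane are known.

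With cycloheximide, nuclear genes totalled 22527980 reads for the input library and 37466743 for the pulldown library. Without it, the totals were 18172466 and 15704610. Ratios are log2 values on counts scaled to these totals, from which the value of that comparison's median gene was subtracted, so that 0 is the median gene and 1 is 2-fold above it. On library totals the median gene stood at -0.73 for pulldown over input with cycloheximide, -0.03 without it and 0.74 for the 2 inputs. Bracketed ranges are 95% intervals that cover counting error only. As a reference, the bait OM45 stood at 4.27 (4.19 to 4.34) with cycloheximide and at 2.26 (2.13 to 2.40) without it.

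Footprint levels per gene length spanned a wide range within the pathway. The authors' RPKM (reads scaled to gene length and to library size) is used for levels, since it allows genes of different length to be compared. In the input with cycloheximide the levels ran from 10.1 RPKM for UPC2 to 513 for ERG25, the sterol methyl oxidase, with a median of 162. In the input without the drug they ran from 13.1 for UPC2 to 810 for ERG20, the farnesyl diphosphate synthase, with a median of 156. The early enzymes ERG10, ERG13 and ERG20 and the sterol enzymes ERG25, ERG6, ERG11, ERG1 and ERG2 were in decile 10, the highest, of all genes ranked by the geometric mean of their input levels. HMG1, which encodes an isozyme of the pathway's known control step, lay in decile 4 with ERG7 and ARE1, and HMG2, the other isozyme, in decile 5.

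**Figure D1:**
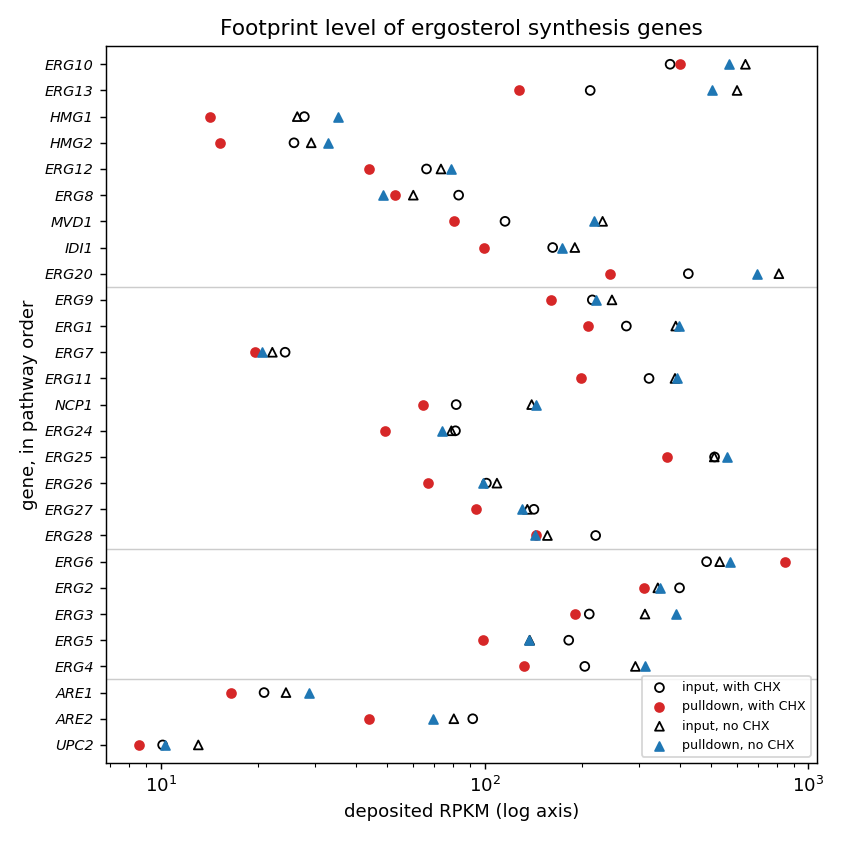
Deposited RPKM (log axis) of the 27 genes in pathway order, in the 4 libraries. Open symbols are inputs, filled symbols are pulldowns, circles are with and triangles without cycloheximide (CHX). ERG6 at 846 RPKM in the pulldown with cycloheximide lies to the right of its other 3 values, while UPC2 is lowest in each library.

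With cycloheximide the pathway as a whole stood at the median gene, and ERG6 stood apart from it. Of the 27 genes, 1 reached 2-fold over the median gene and 0 reached 2-fold under it, against 12.5% and 0.201% of the 5464 genes measured. The median of the 27 was 0.01, where the median of all genes is 0 by construction. Counting intervals lay above 0 for 12 genes, below 0 for 9 and across it for 6. For all 5464 genes these counts were 1943, 1873 and 1648. On library totals, where a larger share for some genes lowers that of the others, 0 members were 2-fold higher (9.13% of all genes) and 3 were 2-fold lower (16.1%), namely HMG1, ERG5 and ARE2.

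ERG6 encodes the sterol methyltransferase, the step that gives fungal sterols their extra side-chain methyl group, and its protein is a standard marker of lipid droplets. It lies on chromosome XIII from 251839 to 252990 in genome build sacCer3 (YML008C). ERG6 had 14517 reads (485 RPKM) in the input with cycloheximide and 38724 (846 RPKM) in its pulldown. Without the drug it had 11304 reads (532 RPKM) in the input and 10452 (572 RPKM) in the pulldown. Thus 1 of the 4 libraries, the pulldown with cycloheximide, was high and the other 3 were close together. Enrichment with cycloheximide was 1.41 (1.38 to 1.44), or 2.65-fold above the median gene, and it exceeded that of 89.5% of all measured genes. ERG6 was also the single member above 0 on library totals, at 0.68. Without cycloheximide it stood at 0.13 (0.09 to 0.17).

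ERG6 took a larger part of the pathway's reads in the pulldown with cycloheximide than in the other libraries. With the drug the 27 genes accounted for 0.705% of the input's nuclear-gene reads, with a Wilson 95% interval of 0.702% to 0.709%. Their share of the pulldown was 0.516% (0.514% to 0.518%). ERG6 made up 9.13% of the pathway's reads in that input and 20.0% in that pulldown. Without ERG6 the other 26 genes took 0.641% and 0.413%. On library totals the median gene stood at -0.73 in this pair, so a lower share in the pulldown is not particular to the pathway. In the pair without the drug the 27 genes took 0.826% (0.822% to 0.830%) of the input and 0.801% (0.796% to 0.805%) of the pulldown, and ERG6 made up 7.53% and 8.31% of the pathway's reads.

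Among the mevalonate enzymes ERG10 was highest with cycloheximide. ERG10 (YPL028W, chromosome XVI, 498096 to 499292) encodes the acetoacetyl-CoA thiolase that condenses acetyl-CoA in the first step. With the drug its input held 11638 reads and its pulldown 19046, against 14105 and 10752 without it. Its enrichment was 0.70 (0.67 to 0.74) with cycloheximide, higher than in 85.2% of genes but short of 2-fold, and on library totals the sign turned, to -0.02. Without the drug ERG10 stood at -0.15 (-0.19 to -0.11).

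The remaining mevalonate genes lay close to the median gene with cycloheximide. ERG13, the HMG-CoA synthase, stood at -0.12, ERG12, the mevalonate kinase, at 0.02, and ERG8, the phosphomevalonate kinase, at -0.05. MVD1, the mevalonate diphosphate decarboxylase, stood at 0.08, IDI1, the isopentenyl diphosphate isomerase, at -0.10, and ERG20 at -0.20. HMG1 and HMG2, the 2 reductases of the ER membrane, stood at -0.36 (-0.45 to -0.27) and -0.15 (-0.24 to -0.06). The 9 mevalonate genes together had a median of -0.10, with 0 members past 2-fold.

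From squalene to zymosterol 7 of 10 genes lay above the median gene with cycloheximide, but 0 reached 2-fold. Of the 7 genes, 5 had an interval above 0, as 1943 of all 5464 genes did. On library totals all 10 genes were below 0. ERG7, the lanosterol synthase, was highest at 0.30 (0.20 to 0.40). NCP1, the reductase that passes electrons to the pathway's cytochromes P450, stood at 0.26, ERG1, the squalene epoxidase, at 0.21, ERG9, the squalene synthase, at 0.18 and ERG25 at 0.12. ERG26 and ERG27, the enzymes that remove the methyl groups together with Erg25, stood at 0.00 and 0.01, and ERG28, their membrane scaffold, at -0.01. ERG11, the azole-sensitive lanosterol demethylase, stood at -0.09 and ERG24, the reductase that follows it, at -0.12.

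In the steps after zymosterol the values spread further. Besides ERG6, ERG3, a sterol desaturase, stood at 0.46 (0.41 to 0.51) and ERG2, the sterol isomerase, at 0.25 (0.20 to 0.29). ERG4, the reductase of the last step, stood at -0.01, and ERG5, a desaturase of the cytochrome P450 family, at -0.28 (-0.32 to -0.23). Of the 3 genes outside synthesis itself, UPC2 stood at 0.36 (0.22 to 0.50), and the sterol acyltransferases ARE1 and ARE2 at 0.27 and -0.45. ARE2 was the lowest member, above 5.47% of all genes, on 4611 input and 3381 pulldown reads.

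**Figure D2:**
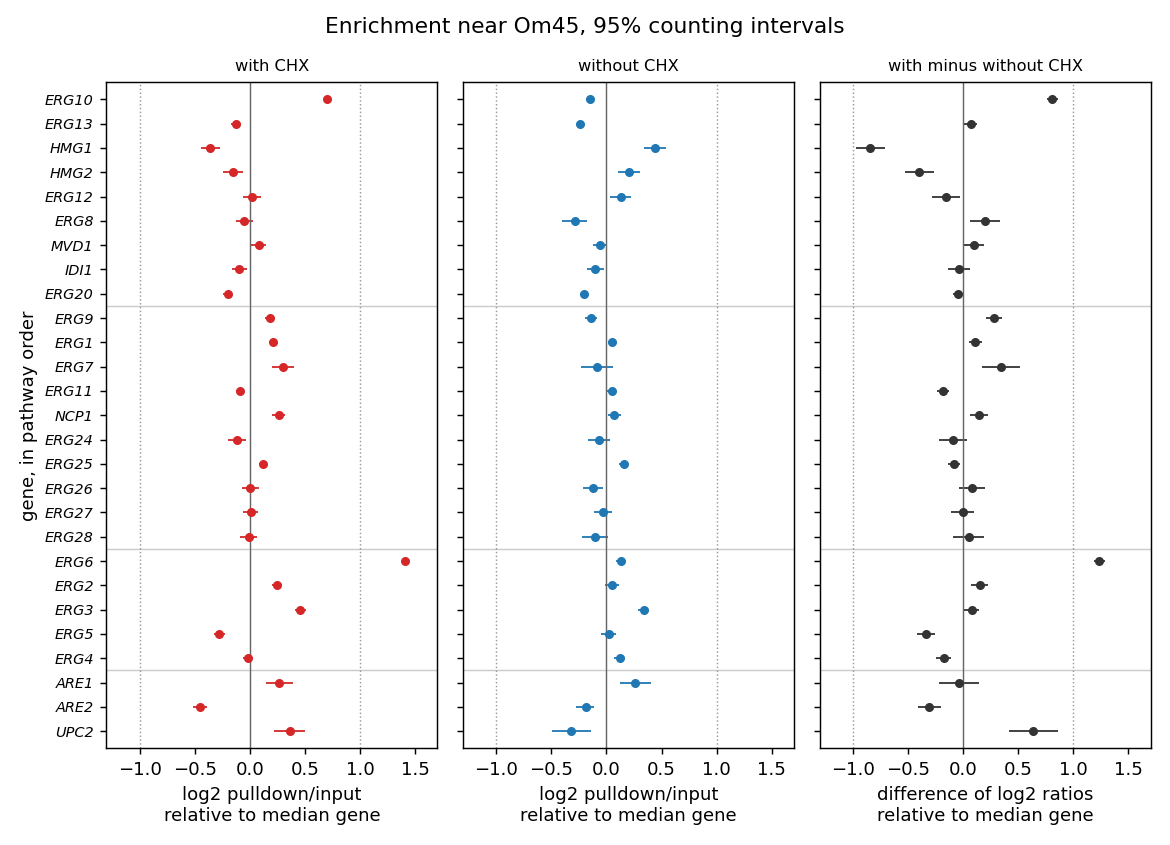
Log2 ratio of pulldown to input relative to the median gene, with and without cycloheximide (CHX), and their difference, for the 27 genes in pathway order. Points are single libraries' ratios, bars are 95% counting intervals and dotted lines mark 2-fold. ERG6 is the only gene past a dotted line, at 1.41 with cycloheximide and 1.24 in the difference.

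Without cycloheximide 0 of the 27 genes reached 2-fold over the median gene and 0 reached 2-fold under it, against 6.39% and 0.0777% of 5148 genes. On library totals both counts were also 0, against 6.06% and 0.0777%. The median of the 27 was -0.03. HMG1 was highest at 0.44 (0.34 to 0.54), above 86.2% of genes, with 1542 reads in the input and 1771 in the pulldown. It was followed by ERG3 at 0.34 (0.29 to 0.39), ARE1 at 0.26, HMG2 at 0.20 and ERG25 at 0.16. At the other end stood UPC2 at -0.32 (-0.49 to -0.14), on 661 input and 448 pulldown reads, ERG8 at -0.29 and ERG13 at -0.24.

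The branch medians without the drug ran from -0.19 to 0.12. Mevalonate genes had a median of -0.10, the genes from squalene to zymosterol -0.05, the 5 later genes 0.12, and the 3 genes of sterol esterification and regulation -0.19. All 5 later genes lay above 0, from ERG5 at 0.02 to ERG3. An interval above 0 was found for 3 of them and for 1510 of all 5148 genes. On library totals, which shift every gene by -0.03, ERG5 turned to -0.01. ERG6, at 0.13, lay beside ERG4 at 0.12 and ERG12 at 0.13, so the gap that set it apart with the drug was not seen here.

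Across the 27 genes the 2 enrichments had a Pearson correlation of 0.11 and a Spearman correlation of 0.16. Over the 5141 genes measured in both conditions these were 0.77 and 0.55. The genes of each set share the same 4 libraries and are not independent replicates, so both are descriptions. The members cover a narrow part of the range that the mitochondrial genes span in the whole set. Whether this bears on the lower correlation of the members was not tested.

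The direct difference of enrichments, with minus without cycloheximide, placed 1 of 27 genes 2-fold or more over the median gene and 0 as far under it, against 9.57% and 0.622% of 5141 genes. That gene was ERG6, at 1.24 (1.19 to 1.28). ERG10 followed at 0.81 (0.76 to 0.86) and UPC2 at 0.64 (0.41 to 0.86). HMG1 was lowest at -0.84 (-0.98 to -0.71), followed by HMG2 at -0.40 and ERG5 at -0.34. On library totals the median gene stood at -0.65, and there ERG6 was at 0.58, ERG10 at 0.16 and HMG1 at -1.49. On that scale 0 members were 2-fold higher (4.55% of all genes) and 2, HMG1 and HMG2, were 2-fold lower (13.5%).

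**Figure D3:**
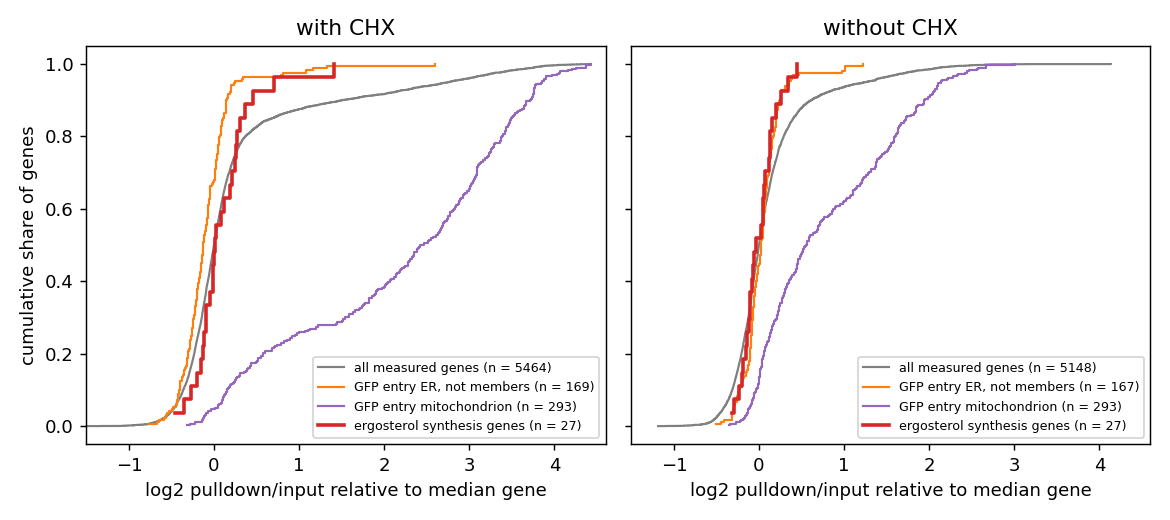
Cumulative share of genes by log2 pulldown over input relative to the median gene, with and without cycloheximide (CHX), for all measured genes, other genes with an ER entry in the authors' GFP annotation, genes with a mitochondrion entry, and the 27 ergosterol genes. The members follow the curve of all genes up to about its middle and lie far to the left of the mitochondrial genes, whose median was 2.42 with and 0.56 without the drug.

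The authors' GFP localization, taken from images of tagged proteins, has an entry for 11 of the 27 genes. Of these, 8 are listed as ER (ERG1, ERG3, ERG4, ERG11, ERG26, ERG28, NCP1 and ARE1), ERG25 as ER and vacuole, ERG27 as lipid particle and UPC2 as nucleus. The other 16 genes, ERG6 and ERG10 among them, carry none. In the table at hand 0 of 2076 genes of chromosomes XIII to XVI have an entry, against 2377 of 4588 on chromosomes I to XII (51.8%), and the last gene in order of systematic name with an entry is YLR166C. As 12 of the 27 members lie on chromosomes XIII to XVI, a missing entry says nothing of where those proteins are. The same holds for HMG2 (YLR450W), which comes after YLR166C. It also holds for ERG7 (YHR072W) and ERG9 (YHR190W), as the last YHR gene with an entry is YHR047C.

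The 9 members with an ER entry were compared with the other genes that have it. With cycloheximide the members had a median of 0.12, from -0.09 for ERG11 to 0.46 for ERG3, and 169 other ER genes had a median of -0.13 with quartiles of -0.26 and 0.04. Of the 9 members 5 lay above that upper quartile and 0 below the lower one. Without the drug the medians were 0.07 for the members and 0.02 for 167 other ER genes, with 3 members above the upper and 2 below the lower quartile. In either condition 0 of the 9 reached 2-fold over the median gene, while 2.37% of other ER genes were with and 1.80% without the drug. ERG27 stood at 0.01 with and -0.03 without cycloheximide. The 16 members with no entry had medians of -0.07 with and -0.08 without the drug, against 0.00 and 0.02 for other genes with no entry.

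Few members carry a mitochondrial annotation. The authors' GO column lists ERG6, ERG9, ERG27 and NCP1 as mitochondrial, and 0 members are in the mitop2 reference set. The 4 listed genes ran from 0.01 to 1.41 with cycloheximide and from -0.14 to 0.13 without it. Of the other genes with this GO entry 45.4% and 24.7% reached 2-fold over the median gene. Among those that are outside mitop2, as these 4 are, the shares were 23.8% and 12.7%, with medians of 0.08 and 0.02. MitoProt, a score for a mitochondrial presequence, was at least 0.5 for HMG2 (0.791), ERG13 (0.750) and ERG25 (0.541), and ERG6 scored 0.108. These 3 genes stood at -0.15, -0.12 and 0.12 with cycloheximide. Of 644 other genes with such a score and neither mitochondrial annotation, 5.90% were 2-fold above the median gene.

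The authors' deposited table calls 0 of the 27 genes enriched in either condition, where it calls 404 of 5329 genes judged with and 223 of 4929 without cycloheximide. In the authors' deposited table ERG6 has a log2 enrichment of 0.80 with cycloheximide, on a scale that is not centred, and the lowest gene called there has 1.58. Between them lie other genes: the authors' deposited table holds 158 uncalled genes with a value above that of ERG6.

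The 2 HMG-CoA reductases and the 2 sterol acyltransferases are pairs of duplicated genes (ohnologs) in the authors' annotation. HMG1 had 27.8 RPKM and HMG2 25.8 in the input with cycloheximide, and 26.4 and 29.2 in the input without it, so their levels were alike. Their enrichment differed in opposite ways. HMG1 minus HMG2 was -0.21 (-0.33 to -0.08) with cycloheximide and 0.24 (0.10 to 0.38) without it. ARE2 had the higher level in every library, 92.0 against 20.9 RPKM for ARE1 in the input with cycloheximide and 80.4 against 24.4 in the input without it. ARE1 had the higher enrichment, by 0.72 (0.59 to 0.86) with and 0.45 (0.29 to 0.61) without the drug. ARE1 (YCR048W) shares 298 bases with YCR050C in the reference gene table, which by its name lies on the opposite strand. Some reads of ARE1 may belong to that frame if counting ignored strand. UPC2 and its ohnolog ECM22, which also activates sterol genes, did not differ beyond counting error in enrichment, with differences of -0.07 (-0.28 to 0.15) and -0.23 (-0.51 to 0.04).

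The inputs were compared to see how the whole-cell footprint levels of the pathway differed between cultures with and without cycloheximide. Relative to the median gene all 27 genes were lower with cycloheximide, with a median of -0.73, but on library totals 14 were higher and 13 lower, with a median of 0.01. Of the 27, 8 reached 2-fold under the median gene and 0 reached 2-fold over it, a share of 29.6% on the lower side, against 10.4% and 10.6% of 5380 genes. On library totals 1 member was 2-fold lower (2.14% of all genes) and 0 were 2-fold higher (34.9%). The 8 were ERG13, MVD1, ERG20, NCP1, ERG10, ERG3, ERG4 and ERG1.

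ERG13 had the lowest input ratio. It had 8132 reads (212 RPKM) in the input with cycloheximide and 16387 (602 RPKM) in the input without it. Its pulldowns showed the same order, with 128 and 502 RPKM, so both libraries with the drug were low. The input ratio of ERG13 was -2.06 (-2.10 to -2.02) relative to the median gene, and it was the member that remained 2-fold lower on library totals, at -1.32. MVD1 stood at -1.55, ERG20 at -1.48, and ERG10 and NCP1 at -1.32 each.

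In 2 members the ratio of inputs could not be told from that of the median gene within counting error. ERG28 at -0.06 (-0.15 to 0.04) and ERG8 at -0.09 (-0.18 to 0.00) had intervals that held 0. ERG5 stood at -0.15, ERG2 at -0.33 and ARE2 at -0.36. HMG1 and HMG2 stood at -0.48 and -0.73, and UPC2 at -0.92. The 5 late genes after zymosterol had a median of -0.69 and the 10 genes before them -0.60, against -0.78 for the mevalonate genes.

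The level of a gene moved with this ratio across the genome. In decile 10 by input level the median ratio was -0.68 and 32.7% of genes were at least 2-fold lower, and in decile 1 the median was 0.73 and 2.42% were. The members are mostly genes of high level, with 8 in decile 9 and 8 in decile 10. Set against the median of its own decile, a member was lower in 23 of 27 cases, with a median difference of -0.48. All 5378 genes split evenly about these medians by construction. At least 2-fold lower than their decile median were 4 members, ERG13, MVD1, UPC2 and NCP1, and 8.13% of all genes. ERG2 (0.35), ERG28 (0.30), ERG5 (0.21) and ERG25 (0.13) lay above the median of their decile. The part of level in the result was not tested further.

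**Figure D4:**
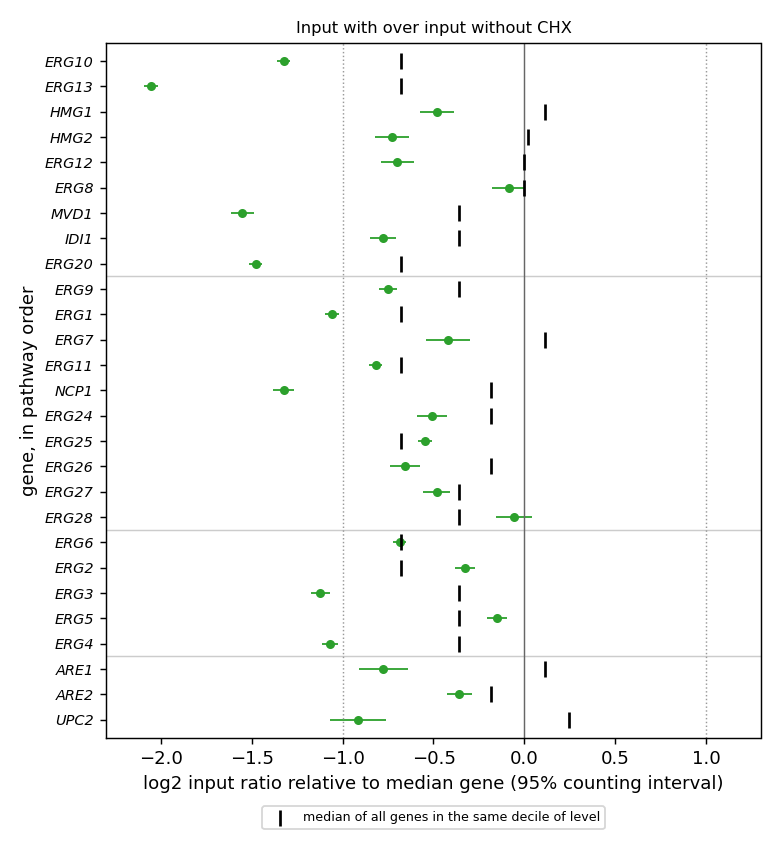
Log2 ratio of the input with to the input without cycloheximide (CHX), relative to the median gene, for the 27 genes in pathway order, with 95% counting intervals. Black ticks are the median of all genes in the same decile of input level. All 27 points lie left of 0 and 23 lie left of their tick, with ERG13 farthest at -2.06.

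Genes next to the pathway were taken from lists chosen by function. Of 14 sterol regulators and turnover factors 1 reached 2-fold over the median gene in each condition, beside 12.5% of all genes with and 6.39% without cycloheximide. On library totals with the drug, 1 was still 2-fold higher and 3 were 2-fold lower, where 9.13% of all genes were higher and 16.1% lower. This was HAP1, the heme-responsive transcription factor, at 2.77 (2.73 to 2.82) with and 1.92 (1.87 to 1.98) without the drug, on 4939 input and 33914 pulldown reads with the drug. The lowest of the list was HRD1, the ubiquitin ligase that degrades Hmg2, at -0.45 and -0.40. Of 20 genes of sterol transport and export 2 passed with cycloheximide, led by OSH6, a lipid transfer protein, at 2.08, and 0 without it, where OSH2 was highest at 0.81. These shares stand beside the same 12.5% and 6.39%, and on library totals with the drug 1 was higher and 2 were lower.

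Other branches from farnesyl diphosphate included mitochondrial enzymes. Of 13 genes 3 reached 2-fold with cycloheximide (12.5% of all genes), and 2 of 12 did without it (6.39%). On library totals with the drug, 2 were higher and 3 lower, beside 9.13% and 16.1% of all genes. COQ1, which makes the side chain of coenzyme Q, was highest at 3.52 and 2.09, and RAM1, a farnesyltransferase subunit, lowest at -0.45 in both. Thus ERG20, the enzyme that makes their substrate, stood at -0.20, and COQ1, which draws on it in the mitochondrion, was among the enriched genes. Of 9 genes of steryl ester and triacylglycerol turnover 1 passed with the drug, TGL4, a lipase, at 1.37, while TGL1, a steryl ester hydrolase, was lowest at -0.56. On library totals with the drug 0 of the 9 were 2-fold higher and 1 was lower, beside the same 9.13% and 16.1%.

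Relative to the median gene, 3 other lipid synthesis lists had 0 members past 2-fold in either enrichment. On library totals with cycloheximide 8 of 26 sphingolipid, 6 of 17 phospholipid and 4 of 9 fatty acid genes were at least 2-fold lower, beside 16.1% of all genes. Their medians with cycloheximide were -0.19 for 26 genes of sphingolipid synthesis, -0.18 for 17 genes of phospholipid synthesis outside mitochondria and -0.20 for 9 genes of fatty acid synthesis, elongation and activation. Without the drug they were 0.01, -0.05 and -0.18. In the input ratio 5 of the 9 fatty acid genes reached 2-fold under the median gene, with ACC1, the acetyl-CoA carboxylase, at -1.78 and a list median of -1.16. Of all genes 10.4% were that low, and on library totals 1 of the 9 and 2.14% of all genes were. The sphingolipid and phospholipid lists each had 1 such gene, SUR4 at -1.01 and CDS1 at -1.37, and medians of -0.25 and -0.50. On library totals these medians rise by 0.74, like every gene in that comparison, which turns all but that of the fatty acid list above 0.

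Targets of Upc2 and hypoxic genes outside the pathway formed the list with the highest median. Of 11 genes measured with cycloheximide 7 reached 2-fold over the median gene, with a median of 1.33, and of 10 without it 4 did, with a median of 0.78. The shares of all genes were 12.5% and 6.39%. On library totals 4 reached that size in each condition, beside 9.13% and 6.06% of all genes. The list holds mitochondrial proteins and cell wall mannoproteins. Highest with the drug was AAC3, a mitochondrial ADP/ATP carrier, at 2.57, and highest without it was TIR4, a mannoprotein, at 1.48. With the drug TIR4 (2.44) and the mannoproteins DAN1 (2.42), TIR2 (1.73), DAN4 (1.45, on 46 input reads) and TIR1 (1.33) also passed 2-fold. ANB1 (1.08) did too, while TIR3 (0.75), HEM13 (0.27), the mitochondrial COX5B (0.04) and CYC7 did not. CYC7, a cytochrome c, was lowest in both, at -0.23 and 0.00. The ergosterol genes, which Upc2 also activates, had 1 of 27 and 0 of 27 past that size.

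**Figure D5:**
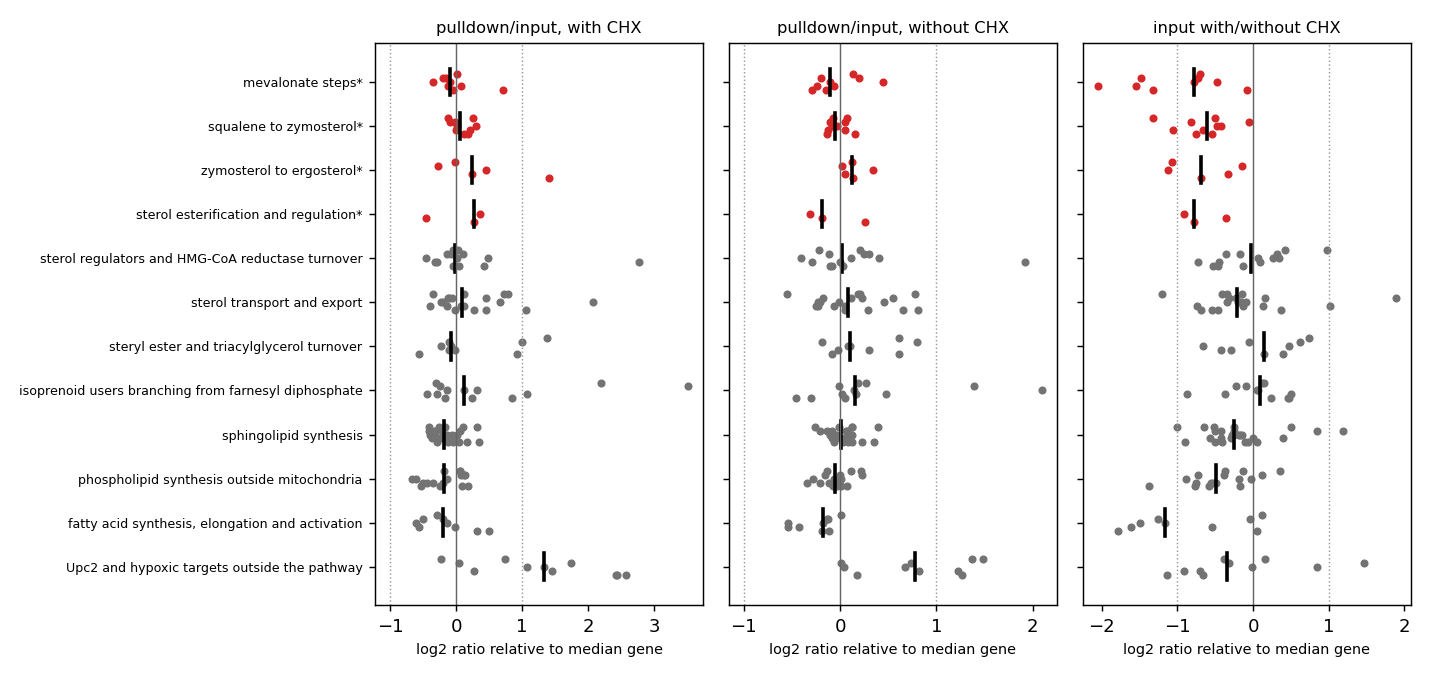
Log2 ratios relative to the median gene for the ergosterol genes by branch (red, lists marked with an asterisk) and for the neighbouring lists (grey), in both enrichments and in the ratio of inputs (CHX, cycloheximide). Each point is a gene, black bars are list medians and dotted lines mark 2-fold. The medians of the member lists lie between -0.19 and 0.27 in the enrichments, and all 4 lie below 0 in the ratio of inputs.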

How the data were processed

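Ribosome footprints were counted in 4 libraries, grouped by sample title, with 1 library per group. The deposited table holds, per the file headers, raw read counts for each gene, RPKM (counts that the authors divided by gene length and by library size) and a log2 enrichment that the authors took from pulldown and input RPKM. The MitoProt score is that of the deposited table. Per the file headers, enriched genes were called by the authors with a ROC cutoff. Per the submitters' processing notes CASAVA and genome build sacCer3 were used. The aligner and its treatment of multiply matching reads were not given in any of the sources used here. It holds 5 further columns of per-sample values, not used here.

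Counts were scaled to nuclear-gene totals, with a pseudocount of 0.5 reads and a minimum of 100 reads over the 2 libraries of a ratio, and centred on the median gene. Intervals are exact Clopper-Pearson at 95%, or the normal approximation on the log scale for differences. Members had 448 to 38724 reads per library, which gave a median interval of 0.06 log2 units to either side in each enrichment. The reads carry no molecular identifiers and so do not count independent molecules, which the intervals cannot show. The procedure was tested on simulated data. Members and lists were chosen with earlier results of these data known. Named genes are all members, the highest and lowest gene of each other list, and all measured genes of the Upc2 and hypoxic list. The ERG6-free shares and the deciles of level were added after the data were seen. Of the listed symbols, SEI1, DAN2 and DAN3 were not found in the table under those names, and ERG29 was found as YMR134W, which the name rule leaves out. No sequences were used here. Alternatives were library totals, TMM scaling, other pseudocounts, read minimums and folds, and the deposited enrichment. Ratios were computed in Python (3.11.15) with numpy (version 2.4.6), pandas (version 2.3.3) and scipy (version 1.17.1), figures with matplotlib (version 3.10.9), and TMM factors with edgeR (version 4.0.16, run under R 4.3.3).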

Additional observations from a re-analysis of the deposited data

Results flagged for a closer look

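In 7 members the enrichments with and without cycloheximide lay on opposite sides of the median gene, each with a counting interval apart from 0. The share of all genes that meet this is not given here. Over all genes, intervals lay above 0 for 1943 and below it for 1873 of 5464 with the drug. Without the drug these counts were 1510 and 1470 of 5148, so an interval apart from 0 is common. With 1 library per group the difference was not tested against any spread between libraries. The difference, with minus without, was 0.81 for ERG10, 0.64 for UPC2, 0.28 for ERG9 and 0.10 for MVD1, which were above the median gene with the drug and below it without. It was -0.84 for HMG1, -0.40 for HMG2 and -0.18 for ERG11, which were below it with the drug and above it without. On library totals all 7 were below 0 with cycloheximide, so for ERG10, UPC2, ERG9 and MVD1, which were below 0 without it too, the opposite signs hold relative to the median gene only. HMG1 (-1.08 with and 0.41 without), HMG2 (-0.88 and 0.17) and ERG11 (-0.82 and 0.02) kept opposite signs on library totals. For ERG11 the value without the drug was there within counting error of 0.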

How the results depend on the processing

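Of 82 recomputed counts and medians of the members, 66 stayed close to the reported value. On library totals the counts of higher and lower members with cycloheximide were 0 and 3 and their median -0.72, and for the difference of enrichments 0 and 2 with a median of -0.60. For the ratio of inputs 1 member was lower and the median was 0.0085. These follow from leaving out the centring. The split of all genes past 2-fold moved with it, from 98.4% higher to 36.2% with cycloheximide, from 93.9% to 25.2% for the difference and from 50.4% to 94.2% for the inputs. At a fold of 1.5, 2 members were higher with cycloheximide, beside 865 of all 5464 genes. In the difference 3 were higher and 1 lower, beside 720 and 201 of 5141. In the ratio of inputs 17 were lower, beside 1176 of 5380. At a fold of 4 the members were 0 higher with cycloheximide, 0 higher in the difference and 1 lower between inputs. Of all genes 453, 143 and 58 reached that fold in the same directions. With a minimum of 1 read the median of the input ratio was -0.82, as sparsely read genes enter the median gene. TMM scaling, a pseudocount of 1, a minimum of 500 reads and the authors' deposited log2 enrichment moved none of these counts by over 1.5 times. No paired analysis was possible because each group holds 1 library. Depth limits UPC2 most, with an interval of 0.14 to either side with and 0.18 without cycloheximide.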

Other observations

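The soluble mevalonate enzymes (ERG10, ERG13, ERG12, ERG8, MVD1, IDI1 and ERG20) and the 19 membrane or lipid droplet proteins of the pathway were set side by side after their values had been seen. The transcription factor gene UPC2, the lowest member without the drug at -0.32, was left out of both groups. Without cycloheximide 6 of the 7 soluble enzymes had an interval below the median gene and 1, ERG12, above it, with a median of -0.15. Of the 19 others 10 had an interval above it and 3 below, with a median of 0.05. The groups overlap, since ERG12 stood at 0.13 and ARE2 at -0.19. Of all 5148 genes measured without the drug, 1510 had an interval above the median gene and 1470 below it. With cycloheximide the medians were -0.05 and 0.01. In the ratio of inputs 4 of 7 soluble enzymes and 4 of 19 others were at least 2-fold below the median gene, with medians of -1.32 and -0.66, beside 10.4% of all genes. On library totals 1 of 7 and 0 of 19 were, beside 2.14% of all genes. The groups were not matched for input level, with which this ratio moved across the genome, and the part of level was not tested.

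YMR134W, which the reference gene table names ERG29, lies outside the name rule. It stood at -0.30 (-0.44 to -0.15) with and -0.01 (-0.24 to 0.22) without cycloheximide, on 909 and 352 input reads. Its input ratio was 0.32 (0.14 to 0.50), on the other side of the median gene from all 27 members.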
